A study of Homo sapiens with 4 samples.

Results

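The genes described here are 10 genes of the cellular response to low oxygen, named as known HIF genes and targets, with earlier results of these data known: the transcription factor subunits HIF1A and EPAS1, the oxygen sensor EGLN3, the secreted peptides VEGFA and ADM, the surface enzyme CA9, the mitochondrial proteins PDK1 and BNIP3, and the stress-responsive genes NDRG1 and ANKRD37. They are 10 genes beside a deposited gene ontology (GO) background of 22148. RNA came from 2 established liver cancer lines, both labelled hepatocellular carcinoma. Group A was HepG2 cells and group C was Huh7 cells, neither with a treatment label. Group B was HepG2 and group D was Huh7 after sonodynamic therapy (SDT), in which low-frequency ultrasound excites a sensitizer; here targeted nanobubbles carried lonidamine (LND), an inhibitor of lactate export and mitochondrial respiration, together with the porphyrin sensitizer HMME. Each group had 1 library, and neither group A nor group C is labelled as having received ultrasound or empty bubbles, so the parts of the treatment cannot be told apart.

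The tables used here hold no read count, expression level, fold change or direction for any gene. What they give for each gene is a call: whether its identifier stands on the list of mRNAs called differentially expressed in group B vs. A (HepG2) or in group D vs. C (Huh7). A called gene is described here as listed when it is named under any GO row of that comparison. A gene that is not listed was not called or carried no GO annotation, and absence from a list does not show an equal level in both groups. With 1 library per group no call has a replicate check, the depth of the libraries is unknown from these files, and the identity of the lines could not be checked on marker levels.

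In cells with enough oxygen, prolyl hydroxylases of the EGLN family modify the HIF alpha subunits, which the VHL ubiquitin ligase then marks for destruction. When oxygen falls, the hydroxylases slow, the alpha subunit pairs with ARNT, and the pair binds short DNA elements with the core letters ACGTG or GCGTG beside its target genes. HIF1A itself is governed mostly at the level of protein stability, so its mRNA and its activity are different quantities. Sonodynamic treatment uses oxygen to make reactive oxygen species, and the response of these genes in the treated lines was the question here.

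RefSeq promoters (GRCh38.p14) were matched for 8 of the 10 genes, in 10 windows; VEGFA and NDRG1 had no entry. The core letters are shown because they are what the HIF pair recognises, so a reader can see which of the genes carry them close to the start. The 250 bases before each annotated start were searched on both strands, so that ACGTG also appears as CACGT and GCGTG as CACGC; in CACGTG the forward and reverse forms overlap. In the stretches below, 5′ to 3′ on the gene's strand, capitals mark the core letters.
ANKRD37: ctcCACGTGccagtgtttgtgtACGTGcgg
ADM: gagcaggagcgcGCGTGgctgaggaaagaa
CA9: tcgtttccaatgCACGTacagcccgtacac
HIF1A: tggctgagagcgGCGTGggctggggtgggg
EPAS1: gggcctgccggcGCGTGcccgcccacacac
PDK1: ccctgctgcccgcCACGTccctCACGTacc
BNIP3: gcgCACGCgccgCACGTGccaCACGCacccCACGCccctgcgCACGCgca

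The ANKRD37 stretch lies at chr4:185396676-185396705 on the plus strand, and its cores span bases 162 to 139 before the start. The ADM stretch is at chr11:10304960-10304989 (plus), with its core at bases 101 to 97. Both stretches fall inside an exon of a longer transcript of the same gene in GENCODE release 29. The CA9 stretch, at chr9:35673898-35673927 (plus), ends at the base before the RefSeq start, carries its core at bases 18 to 14 and overlaps exons of CA9 and of ARHGEF39 on the opposite strand. The HIF1A stretch, upstream of the first of the RefSeq starts, is at chr14:61695297-61695326 (plus), and that of EPAS1 is at chr2:46297278-46297307 (plus); neither overlaps an annotated exon. The PDK1 stretch is at chr2:172556060-172556089 (plus), before the later of its starts, in exons of PDK1 and of AC078883.1. The BNIP3 stretch is at chr10:131982020-131982069 (minus), outside annotated exons, and holds 6 core matches between bases 143 and 100. The EGLN3 window held none of these letters.

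Cores were thus found in 7 of the 10 windows, which is 70.0%, against 43.2% of all 35116 RefSeq windows of this length. ACGTG alone was in 40.0% of the windows of these genes and in 18.5% of all windows, and GCGTG in 40.0% and 32.2%. Cores were found in ANKRD37 and ADM, the genes listed in both lines that had a window, and also in EPAS1, PDK1 and BNIP3, which were listed in neither. Counted by gene instead of by window, a gene had a core if any of its windows did. That held for 7 of the 8 hypoxia genes with a window, a number too small to test. It held for 57.1% of protein-coding genes with a window. The share was 54.2% of those listed in both lines, 56.0% of those listed only in HepG2, 54.5% of those listed only in Huh7 and 58.3% of those listed in neither. These matches describe letters, not occupied sites.

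Of the 10 hypoxia genes, 5 were listed in group B vs. A, where 21.6% of all background genes were, and 5 were listed in group D vs. C, where the background share was 19.7%. The lists held different members of the set. VEGFA, ADM and ANKRD37 were listed in both lines, which was 3 of 10 genes against 10.3% of the background. EGLN3 and CA9 were listed only in HepG2, and HIF1A and NDRG1 only in Huh7, which was 2 of 10 genes in each case against 11.3% and 9.43% of the background, or 12.6% and 10.5% of the genes not listed in both. EPAS1, PDK1 and BNIP3 were listed in neither. With the protein-coding genes of GENCODE release 29 as the background, the shares were 23.9% in HepG2, 21.9% in Huh7 and 11.4% in both. These shares are a description, since the genes were chosen with results of these data in view. No test was made over the 10 genes, which are not replicates of a condition, and a call in 1 line without a call in the other was not tested as a difference between the lines.

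**Figure D1:**
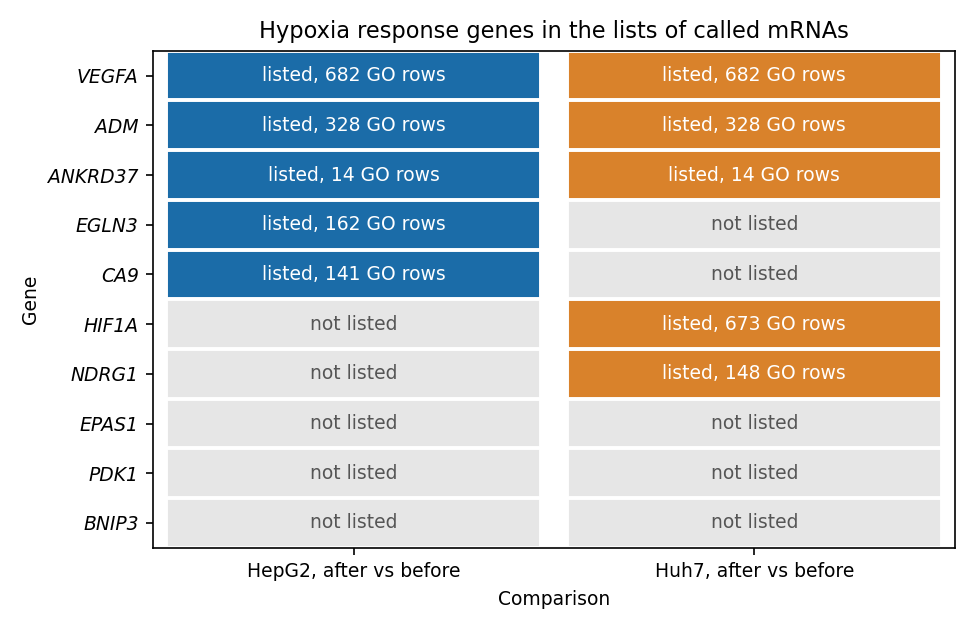
Calls for the 10 hypoxia genes (vertical axis) in the HepG2 and Huh7 comparisons of cells after against before treatment (horizontal axis). Coloured cells mark listed genes with the number of GO rows that name them, and grey cells mark genes that are not listed; VEGFA, ADM and ANKRD37 are coloured in both columns.

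Both secreted members were listed in both lines. VEGFA (ENSG00000112715), the growth factor that drives the sprouting of blood vessels, was named by 682 GO rows and 15 KEGG pathways in each comparison. The number of GO rows reflects how widely a gene is annotated, and so it was the same in both lines. The narrowest of its rows was coronary vein morphogenesis, in which it was the only listed gene of 2 background genes in either line. The VEGFA locus overlaps AL136131.3 on the opposite strand. ADM (ENSG00000148926), which encodes the vessel-relaxing peptide adrenomedullin, was named by 328 GO rows in each comparison and by no KEGG pathway. Its narrowest row, adrenomedullin receptor binding, has ADM as its sole background gene. VEGFA and ADM stood together in 165 GO rows.

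ANKRD37 (ENSG00000186352), a small ankyrin-repeat protein known as a HIF target, was the other gene listed in both lines. It was named by 14 GO rows in each, all broad. The narrowest was mitochondrion, with 323 listed genes of 1734 in HepG2 and 288 in Huh7. None of the 10 oxygen terms examined named it, so an account of hypoxia built only on GO terms would leave it out. Its locus overlaps UFSP2 on the opposite strand. The labels give a strand-preserving library kit, but whether the counting used strand is not given in the sources used here.

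EGLN3 and CA9 were listed in HepG2 only. EGLN3 (ENSG00000129521) is a prolyl hydroxylase that is both a brake on HIF and a HIF target. It was named by 162 GO rows and 3 KEGG pathways (Pathways in cancer, HIF-1 signaling pathway and Renal cell carcinoma). Its narrowest row was peptidyl-proline 4-dioxygenase activity, where it was the only listed gene of 7. CA9 (ENSG00000107159) is a membrane-bound carbonic anhydrase that helps tumour cells dispose of acid. It was named by 141 GO rows and by the KEGG pathway Nitrogen metabolism, and its narrowest row, carbonate dehydratase activity, had 5 listed genes of 15 in HepG2. In Huh7, that row had 7 listed genes without CA9. EGLN3 and CA9 shared 91 GO rows. In the annotation, EGLN3 overlaps AL356806.1 and SPTSSA on its own strand, which stranded counting does not separate, and EGLN3-AS1 on the opposite strand; 1 EGLN3 pseudogene is also named. CA9 overlaps ARHGEF39 on the opposite strand.

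HIF1A and NDRG1 were listed in Huh7 only. HIF1A (ENSG00000100644), the oxygen-regulated subunit of the HIF-1 factor, was named by 673 GO rows and 6 KEGG pathways. In its narrowest row, positive regulation of chemokine-mediated signaling pathway, both of the 2 background genes were listed. NDRG1 (ENSG00000104419), a stress-responsive gene with a known role in the myelin of peripheral nerves, was named by 148 GO rows and no KEGG pathway. Its narrowest row was peripheral nervous system myelin maintenance, with 3 listed genes of 7. HIF1A shared 316 GO rows with VEGFA and 77 with NDRG1. The GO row hypoxia-inducible factor-1alpha signaling pathway, looked up after the lists had been seen, had 2 listed genes of 5 in Huh7 (HIF1A and PDK3) and no row in the HepG2 table. HIF1A is overlapped by AL137129.1 on its own strand and by HIF1A-AS1 and HIF1A-AS2 on the opposite strand, and 1 HIF1A pseudogene is named, so its call is uncertain in this respect whether or not the counting used strand.

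EPAS1, PDK1 and BNIP3 were listed in neither line. EPAS1 (ENSG00000116016) encodes the other main oxygen-regulated subunit, HIF-2 alpha. PDK1 (ENSG00000152256) is the kinase that keeps pyruvate out of the mitochondrial citrate cycle, and it was matched by its Ensembl identifier because the same letters are in use for another kinase. BNIP3 (ENSG00000176171) brings mitochondria to the autophagy machinery. On the opposite strand, PDK1 overlaps AC078883.1 and RF00019, and BNIP3 overlaps AL162274.2 and AL162274.1. GENCODE release 29 names 39 BNIP3 pseudogenes, with which a read counter may share or lose its reads, so its missing call is uncertain.

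Relatives of these genes were looked up after the calls had been seen. Over all background genes, 21.6% were listed in HepG2, 19.7% in Huh7 and 10.3% in both. Most families of relatives are too small to be set against those shares, and none was tested. Among 5 ligands of the VEGF family, VEGFA and VEGFC were listed in both lines, PGF and VEGFD in Huh7 only and VEGFB in neither. Of 5 VEGF receptors and co-receptors (FLT1, KDR, FLT4, NRP1, NRP2), 0 were listed in HepG2 and NRP1 alone was listed in Huh7. The ADM relative ADM2 was listed in both lines, as was ADM itself. Of the receptor parts CALCRL, RAMP1, RAMP2 and RAMP3, 0 were listed in HepG2 and RAMP2 alone was listed in Huh7.

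The relatives of the intracellular members gave a mixed pattern. EGLN1 and EGLN2, the other HIF prolyl hydroxylases, were listed in neither line, and neither was HIF3A. Among the pyruvate dehydrogenase kinases, PDK2 was listed in both lines and PDK3 in Huh7, while PDK1 and PDK4 were not listed, and neither were the enzymes that they act with or against (PDHA1, PDHB, PDP1 and PDP2). BNIP3L, the close relative of BNIP3 in mitochondrial autophagy, was listed in both lines. NDRG4 was listed in Huh7 as NDRG1 was, and NDRG2 and NDRG3 in neither. Of 15 carbonic anhydrase genes, CA2, CA3, CA11 and CA13 were listed in both lines, CA9 alone in HepG2 only, and CA4, CA8 and CA10 in Huh7 only. That was 5 of 15 in HepG2, 7 in Huh7 and 4 in both, beside background shares of 21.6%, 19.7% and 10.3%. CA12, the other membrane enzyme tied to HIF in tumours, was listed in neither.

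The wider pathway was described by 92 genes in 9 groups by role, the 10 genes included and chosen under the same limit. In HepG2, 31 of the 92 (33.7%) were listed and in Huh7 30 (32.6%), against the 21.6% and 19.7% of all background genes given before; 17 (18.5%) were listed in both lines. Without the 10 genes, 26 and 25 of 82 were listed (31.7% and 30.5%). Annotated genes in general also stood above that background. In HepG2 and Huh7, 23.9% and 21.9% of protein-coding genes were listed, and 26.3% and 25.8% of gene entries over all KEGG pathways. The groups are given in the order of the pathway, from sensors to targets, and no difference between groups was tested. Of 10 genes for oxygen sensing and HIF breakdown, EGLN3 and ELOC, a subunit of the VHL ligase, were listed in HepG2 and 0 in Huh7. Among them EGLN1, HIF1AN, VHL, CUL2 and RBX1 were listed in neither line. Of 8 co-regulators, SIRT1 was listed in HepG2 and 0 in Huh7. Among the 5 HIF subunits, ARNT2 was listed in both lines and HIF1A in Huh7.

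The targets that act on blood vessels had 7 of 14 genes listed in HepG2 and 9 of 14 in Huh7 (64.3%). The genes listed in both lines, 35.7% of the group beside 10.3% of the background, included VEGFA, ADM, ANGPTL4 and EDN1. EDN1 encodes the vessel-constricting peptide endothelin. The vessel-stabilising ligand ANGPT1 and the endothelial nitric oxide synthase NOS3 were listed in HepG2 only, and PGF, PDGFB, LOX and the inducible synthase NOS2 in Huh7 only. The targets of glucose use stood near the background, with 4 of 21 genes in HepG2 (19.0%) and 5 in Huh7 (23.8%). Of these, the glucose carrier SLC2A3 was the only gene listed in both lines. HK2, PFKFB3 and the lactate carrier SLC16A3 were listed in HepG2 only, and HK1, TPI1, ENO2 and PDK3 in Huh7 only. LDHA, PGK1, SLC2A1, ALDOA and GAPDH, all common markers of HIF activity in glycolysis, were listed in neither line.

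Among the targets for iron and red cell formation, the heme-degrading enzyme HMOX1 and the copper-carrying ferroxidase CP were listed in both lines, the hormone gene EPO in HepG2 only and the iron hormone gene HAMP in Huh7 only, so that 3 of 6 genes were listed in each. Of 4 genes for acid handling, 3 were listed in HepG2 and 2 in Huh7, among them the bicarbonate carrier SLC4A4 in both lines and CA9 in HepG2 only. Without CA9, 2 of the 3 genes for acid handling were listed in each line. Of 9 mitochondrial targets, BNIP3L and the protease LONP1 were listed in both, COX4I2 and MXI1 in HepG2 only and FUNDC1 in Huh7 only. Among 15 other targets, ANKRD37, the mTOR inhibitor DDIT4, the lipid droplet protein PLIN2 and the secreted hormone STC2 were listed in both lines, PLOD2 and KDM4C in HepG2 only, and NDRG1 and BHLHE41 in Huh7 only. HMOX1 and DDIT4 also answer to stresses other than low oxygen. These groups are small, and all background genes stood at 21.6% in HepG2, 19.7% in Huh7 and 10.3% in both.

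**Figure D2:**
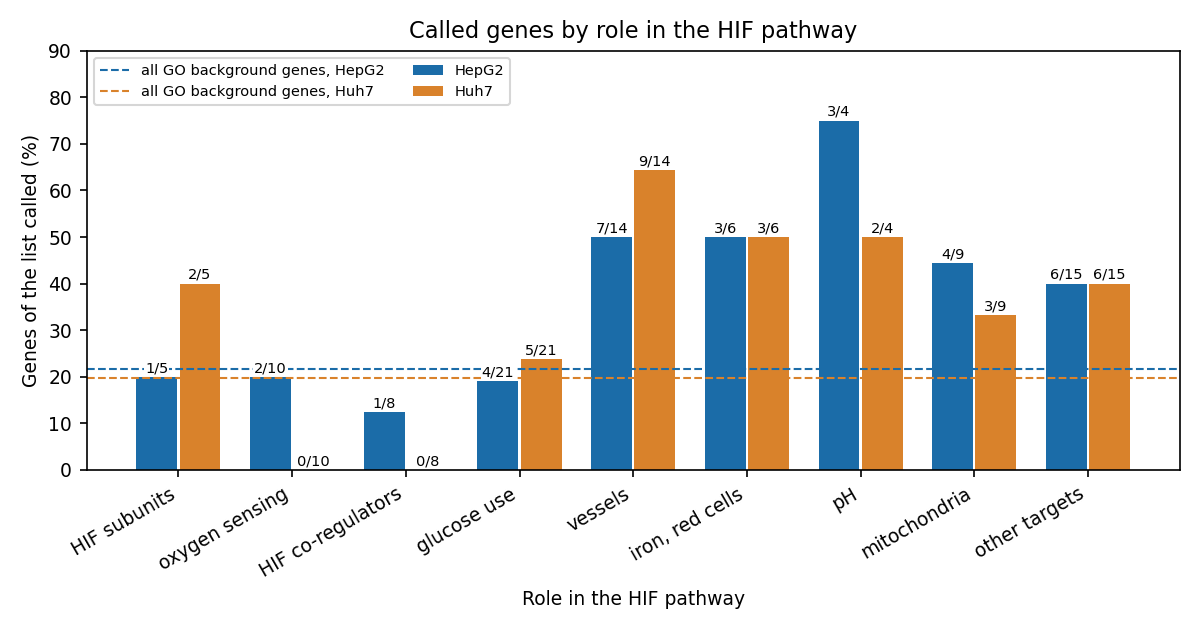
Share of genes listed (vertical axis, percent) in 9 groups of the HIF pathway (horizontal axis), with HepG2 in blue and Huh7 in orange; labels on the bars give listed genes over genes in the group and dashed lines mark all GO background genes. The vessel bars stand for 7 and 9 of 14 genes, and the glucose bars at 19.0% and 23.8%, near the lines at 21.6% and 19.7%.

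GO terms for the oxygen response were compared by the share of their background genes that was listed. Response to hypoxia had 95 listed genes of 312 in HepG2 (30.4%) and 85 in Huh7 (27.2%). The lines had 48 of these genes in common, 50.5% of the HepG2 genes and 56.5% of the Huh7 genes. Of all listed genes, 4783 in HepG2 and 4369 in Huh7, 2281 were in common. The overlap within the term was not tested against that of all listed genes. EGLN3, VEGFA, ADM and CA9 were among the HepG2 genes of the term and HIF1A, VEGFA, ADM and NDRG1 among its Huh7 genes. Terms of this size were in general above the background of all genes: over 571 biological process terms with 200 to 500 background genes, the median share was 25.8% in HepG2 and 23.6% in Huh7. A higher share than that of response to hypoxia was found in 96 of these terms in HepG2 (16.8%) and in 136 in Huh7 (23.8%). The terms share genes and are not independent of each other.

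The narrower terms held fewer of the members. Their shares are set beside 21.6% of all background genes in HepG2 and 19.7% in Huh7. Cellular response to hypoxia had 50 listed genes of 162 in HepG2 (30.9%) and 45 in Huh7 (27.8%). ADM is not annotated under it, while EGLN3, VEGFA and CA9 were in its HepG2 row and HIF1A, VEGFA and NDRG1 in its Huh7 row. Regulation of transcription from RNA polymerase II promoter in response to hypoxia had 8 of 33 genes listed in HepG2 (24.2%) and 6 in Huh7 (18.2%). Its narrower term for positive regulation, looked up after the lists had been seen, had 2 of 5 genes listed in each line, RBPJ and VEGFA in HepG2 and HIF1A and VEGFA in Huh7. Genes listed under the broader term of 33 genes included EGR1 and VEGFA in both lines. They also included CA9, EGLN3, ELOC, EPO and RBPJ in HepG2 only, and BACH1, HIF1A and STOX1 in Huh7 only. Response to hyperoxia, the opposite condition, had 7 of 21 genes listed in HepG2 (33.3%) and 3 in Huh7 (14.3%).

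Terms for the processes that the members serve gave the following shares. Of all background genes, 21.6% were listed in HepG2, 19.7% in Huh7 and 10.3% in both. The median for terms with 200 to 500 background genes was 25.8% in HepG2 and 23.6% in Huh7. No term was tested against these values. Angiogenesis had 164 listed genes of 559 in HepG2 (29.3%) and 161 in Huh7 (28.8%). Glycolysis had 22 of 76 genes in HepG2 (28.9%) and 14 in Huh7 (18.4%). Response to reactive oxygen species had 69 of 224 genes (30.8%) and 55 (24.6%), and none of the members listed in either line is annotated under it. Mitochondrion degradation, the process in which BNIP3 acts, had 16 of 42 genes (38.1%) and 12 (28.6%), and 10 genes were common to both lines, among them SQSTM1, GABARAPL1, GABARAPL2 and WIPI1 of the autophagy machinery.

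**Figure D3:**
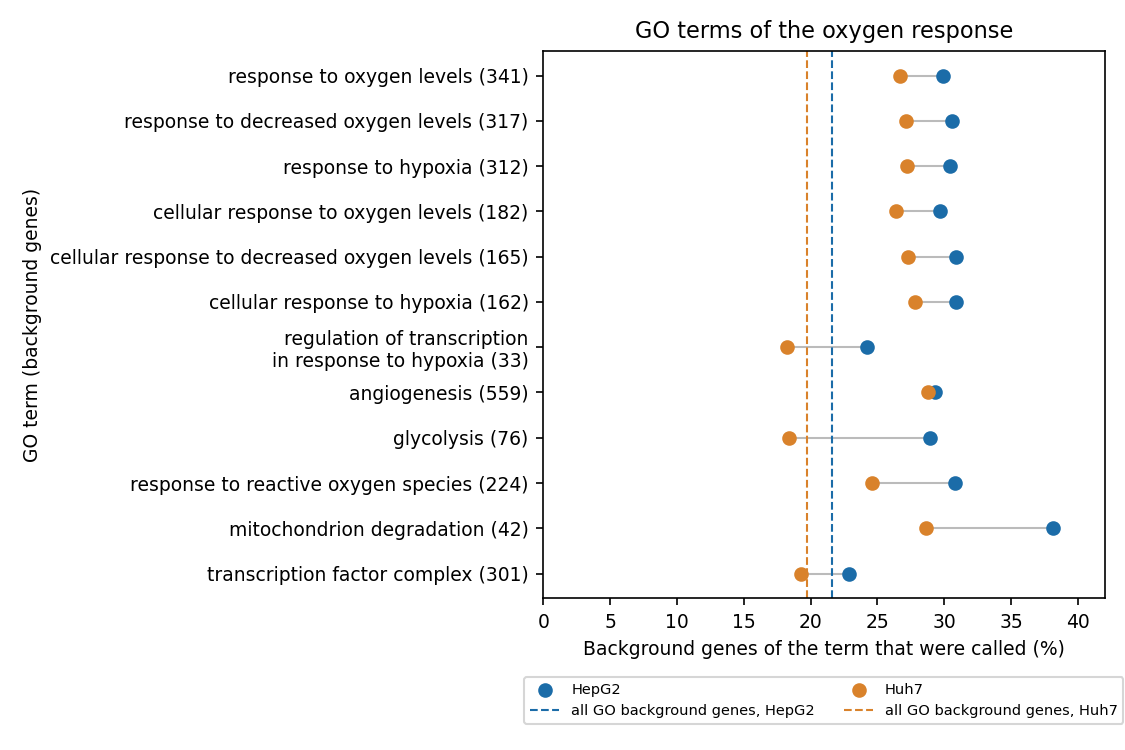
Share of background genes listed (horizontal axis, percent) under GO terms with at least 30 background genes (vertical axis, with the number of background genes), in HepG2 (blue) and Huh7 (orange). Dashed lines mark all GO background genes; response to hypoxia lies at 30.4% and 27.2%, and regulation of transcription in response to hypoxia at 24.2% and 18.2%.

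The KEGG row HIF-1 signaling pathway had 29 listed genes of 106 in HepG2 (27.4%) and 28 in Huh7 (26.4%). Summed over all KEGG pathways, 26.3% of gene entries were listed in HepG2 and 25.8% in Huh7. Among pathways with at least 10 background genes, the median share was 26.1% in each line, and 117 of 272 pathways in HepG2 and 132 of 274 in Huh7 had a higher share than the HIF-1 row. The row therefore stood at the level of pathways in general in both lines. It named VEGFA in both, EGLN3 in HepG2 and HIF1A in Huh7, and none of ADM, CA9, NDRG1 and ANKRD37.

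The rows of the lines had 15 genes in common, 51.7% of the HepG2 genes and 53.6% of the Huh7 genes. For scale, the GO lists of 4783 genes in HepG2 and 4369 in Huh7 had 2281 genes in common. Whether the row overlapped more than the lists was not tested. The 15 genes included VEGFA, EDN1, HMOX1, HK3, HKDC1, PFKFB1, PIK3CD, PIK3CG, MKNK2, EIF4EBP1, CAMK2B, IL6, IL6R and CDKN1A. Of these, VEGFA, EDN1 and HMOX1 are targets of HIF and HK3, HKDC1 and PFKFB1 act on glucose, while PIK3CD, PIK3CG, MKNK2 and EIF4EBP1 belong to growth factor signalling upstream of HIF translation. The genes of a single line were grouped by role afterwards. In HepG2 they included the PI3K regulatory subunits PIK3R1 and PIK3R2, IGF1, the angiopoietin receptor TEK with its ligand ANGPT1, EPO, NOS3, HK2 and PFKFB3. In Huh7 they included the NADPH oxidases NOX1 and NOX3, the kinases CAMK2A, CAMK2D, PRKCB, MAP2K1 and MKNK1, the receptor TLR4, NOS2, HK1 and ENO2. Each row also held 1 identifier without a gene symbol, and in HepG2 that identifier was absent from the GO list.

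**Figure D4:**
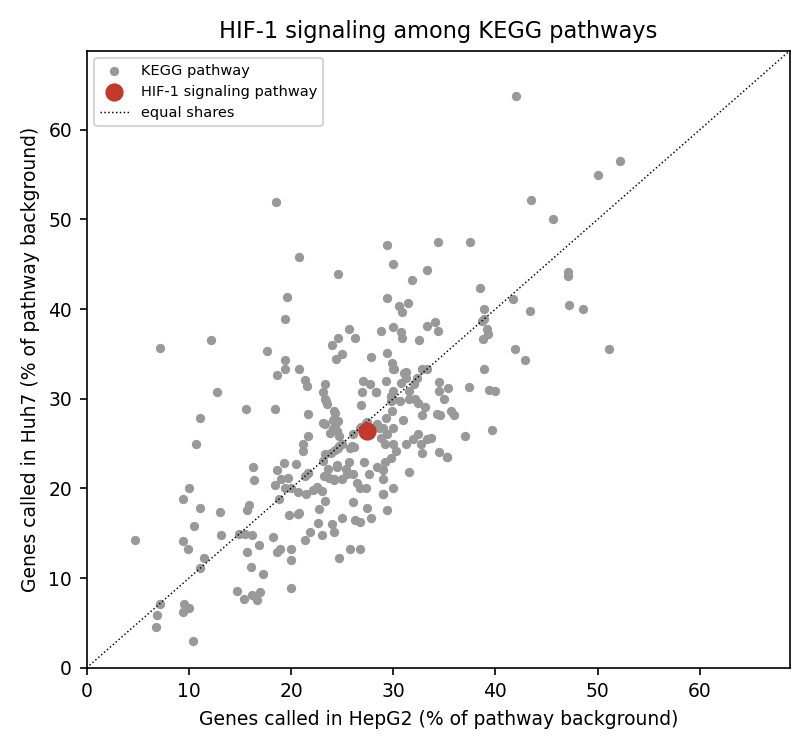
Share of background genes listed in HepG2 (horizontal axis, percent) and in Huh7 (vertical axis, percent) for the 272 KEGG pathways with at least 10 background genes in both tables; each grey point is a pathway, the red point is HIF-1 signaling pathway and the dotted line marks equal shares. The red point, at 27.4% and 26.4%, lies in the middle of the cloud and close to the line.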

How the data were processed

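RNA from HepG2 and Huh7 cells, before and after SDT, was sequenced after removal of ribosomal RNA (4 groups, 1 library each). The submitters' processing notes name Bowtie2 (2.2.8), HISAT2, StringTie (1.3.1) and Cuffdiff (2.1.1); the genome build and annotation are not given in the sources used here. The authors called mRNAs at an adjusted p-value under 0.05 and used GOseq for GO terms and KOBAS for KEGG pathways. The deposited tables give, per term or pathway, counts of listed and background genes (not reads), gene identifiers, and enrichment p-values, which were not used.

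Lists were rebuilt as the union of identifiers under all GO rows (4783 and 4369 genes; 15 and 9 were loci without an Ensembl identifier). Symbols were taken by Ensembl identifier, overlaps from GENCODE release 29 and promoters from RefSeq. Scripts ran in Python 3.11.15 with pandas 2.3.3 and were tested on simulated tables. The members and lists were chosen with earlier results of these data known; relatives of the members, roles within the KEGG row and the GO rows of like size were chosen after the tables had been examined. Named are all members, genes of the 9 groups listed in both lines or, where 8 or fewer, in a single line, and genes of the KEGG row listed in both; the unlisted genes and single-line genes of GO and KEGG rows were named afterwards. A few genes that this rule would name are not reported here. No expression test was possible, since the tables hold no values per library.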

Additional observations from a re-analysis of the deposited data

How the results depend on the processing

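Of 122 alternative values, 91 stayed within 1.5 times the count or within the 95% Wilson interval of the share, which covers counting error only. Of the 91, 55 came from leaving out the 10 genes and 23 from taking GO and KEGG tables together. Those settings change few genes, so the total says little about stability. With the KEGG tables alone as the source of listed genes, 3 of the 10 hypoxia genes were listed in HepG2, 2 in Huh7 and 1 in both, since ADM, ANKRD37 and NDRG1 are in no KEGG pathway of these tables. Taking GO and KEGG tables together or leaving the 10 genes out of the shares moved no value beyond those limits. With genes listed in a single line only, 26 values moved beyond those limits and 11 did not. The moved values included the shares of response to hypoxia and of the HIF-1 row in both lines. In this setting the share of response to hypoxia was 17.8% in HepG2 and 14.0% in Huh7, beside 12.6% and 10.5% of GO background genes. That of the HIF-1 row, a setting chosen after seeing the data, was 15.4% and 14.3%, and no share over KEGG entries was computed to set beside it. With protein-coding genes as the background, 23.9% and 21.9% of genes were listed. No paired analysis was possible because each group had 1 library and no test was made. The tables give no depth, so a gene missed for low coverage cannot be told from a gene that was measured and not called.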
